A study of Mus musculus with 24 samples.

Results

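The nuclear-encoded subunits of the mitochondrial respiratory chain and ATP synthase were followed through 24 mouse heart libraries. Members were the protein-coding genes whose mouse symbol was Ndufa, Ndufb, Ndufc, Ndufs or Ndufv plus a number (Ndufaf assembly factors left out), Sdha to Sdhd, Uqcr plus a suffix, Cyc1, Cox4 to Cox8 or Atp5 plus a suffix. Of 52350 gene identifiers in each library, 98 had such a symbol. After 12 that were not protein-coding were dropped, 86 members stayed: 37 of complex I, 4 of complex II, 9 of complex III, 18 of complex IV and 18 of complex V. Among those dropped was Ndufb1-ps, annotated as a bidirectional promoter lncRNA although it held 287860 counts. The annotation used spells several complex V genes in the older way, so that Atp5a1 is the gene now called Atp5f1a, Atp5b is Atp5f1b, and Atp5g1 to Atp5g3 are Atp5mc1 to Atp5mc3. The symbol rule also places a few genes by name rather than by protein: Ndufa4 was counted with complex I although its protein is now assigned to complex IV, Cox7a2l encodes a factor of supercomplexes, and Atp5s encodes a coupling factor rather than a core subunit.

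Complexes I to IV pass electrons from NADH and succinate to oxygen, complexes I, III and IV pump protons across the inner mitochondrial membrane, and complex V uses the returning protons to make ATP. A handful of their subunits are encoded by the mitochondrial genome and all others by nuclear genes, so that assembly draws on transcripts of both origins. The beating heart depends on this machinery for nearly all of its ATP, and striated muscle uses its own isoforms of several complex IV subunits.

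All mice were male C57Bl/6 wild types aged 12 weeks, habituated to the treadmill, with lights on for 12 h and off for 12 h. Exercised mice ran once on the treadmill for 60 min, at 10 m/min without incline (0% grade), either at zeitgeber time 12, the hour of lights off when mice become active (ZT12-EX), or at zeitgeber time 0, the hour of lights on (ZT0-EX). Sedentary mice were sampled at the same times (ZT12-SED and ZT0-SED). The comparison asks whether the response of the heart to exercise depends on the time of day. How long after the run the hearts were taken is not stated in the labels. Each group had 6 mice, of which replicates 4 to 6 were sequenced on flow cell 2 and replicates 1 to 3 on flow cell 1.

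Library totals ranged from 9697334 to 23067191 counts. In the shallowest, ZT12-SED 1, a count of 3 was worth 0.575 CPM (counts relative to the library total, scaled here by TMM), against 0.13 CPM in the library with the lowest such value. All 8 cardiomyocyte markers were present throughout and summed to between 30362 and 196292 CPM, which matches the heart label. The 12 fast skeletal muscle markers averaged 5.56 to 7.44 log2 CPM in 6 libraries of flow cell 2, namely ZT0-EX 4, 5 and 6, ZT0-SED 6, ZT12-SED 6 and ZT12-EX 6. Library ZT12-EX 4 stood apart from the other 23 in the subunits themselves, and most subunit results that rest on it are given with and without it. Transcripts of the mitochondrial genome took 2.7% of the counts in that library and up to 55.1% elsewhere.

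The subunits were among the most abundant transcripts of the heart. They took 3.79% to 15.9% of all counts in a library, with a median of 6.13%. Per kilobase of transcript, 36 of the 100 highest and 77 of the 500 highest among 15288 genes with a length were members, and the median member reached 764 CPM per kilobase, against 3.99 for the median gene. By complex the median level was 444 CPM per kilobase in complex I, 432 in complex II, 1006 in complex III, 1587 in complex IV and 1761 in complex V. The small membrane subunit Cox6c led with 5198 CPM per kilobase, followed by Ndufa4 at 4330, the striated muscle isoform Cox7a1 at 3969 and Uqcrh, the hinge protein of complex III, at 3320. At the other end stood Atp5s at 22.8, the complex IV isoform Cox4i2 at 11.2, Ndufa4l2 at 11.1 and the testis isoform Cox6b2 at 4.99 CPM per kilobase. After the filter on low counts, 83 members were tested among 15294 genes. The 3 not tested were Cox7b2, at 0 to 1.07 CPM, Cox8c, and a second identifier named Atp5o, which both held no count in any of the 24 libraries.

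The members differ in the base composition of their transcripts, a property that returns in the comparisons below. GC content ran from 39% in Atp5s to 61.1% in Atp5d, with a median of 52.2%, against 50.3% over all genes. Their transcripts were short, with a median of 745 bases against 2646. The sequences that follow are the first 120 coding bases, 5′ to 3′, from GENCODE M21 (GRCm38), with every G and C in capitals, for a pair of GC-rich members and a pair of GC-poor ones (whole transcripts at 59.7%, 58.9%, 42% and 44.1% GC). Ndufb7 (chromosome 8) encodes an accessory subunit of the complex I membrane arm and Uqcr11 (chromosome 10) a small subunit of complex III, while Cox7b (chromosome X) and Ndufa4 (chromosome 6) encode small subunits of complex IV.
Ndufb7: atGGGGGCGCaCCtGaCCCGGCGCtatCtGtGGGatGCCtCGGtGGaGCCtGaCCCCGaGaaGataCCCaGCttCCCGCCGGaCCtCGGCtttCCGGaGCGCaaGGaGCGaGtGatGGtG
Uqcr11: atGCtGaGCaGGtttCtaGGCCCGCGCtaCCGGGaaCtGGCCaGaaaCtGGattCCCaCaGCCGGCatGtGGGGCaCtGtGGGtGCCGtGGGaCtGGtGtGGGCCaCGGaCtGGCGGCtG
Cox7b: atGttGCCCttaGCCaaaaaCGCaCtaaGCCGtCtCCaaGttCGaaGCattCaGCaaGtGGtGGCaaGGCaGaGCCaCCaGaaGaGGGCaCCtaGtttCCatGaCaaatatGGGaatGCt
Ndufa4: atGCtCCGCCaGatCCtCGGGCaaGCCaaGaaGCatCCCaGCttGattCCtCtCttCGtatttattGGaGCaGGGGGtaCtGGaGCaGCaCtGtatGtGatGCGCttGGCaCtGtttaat
In these stretches G and C made up 66.7% of the bases in Ndufb7 and 65.8% in Uqcr11, against 50% in Cox7b and 51.7% in Ndufa4.

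Promoters were read for the members found in the RefSeq table of 250 bases before to 50 bases after the gene start (GRCm38.p6), which held 65 of the 83. Nuclear respiratory factor 1 (NRF1) and GABP, an ETS factor, are the classical activators of respiratory chain genes, and ERR receptors serve the same genes in heart and muscle. On either strand, the NRF1 core GCGCATGC was in 10 of these promoters (15.4%), against 3.05% of the promoters of 27025 genes. The ETS core CCGGAAG was in 16 (24.6%), against 9.93%, and the ERR half-site AAGGTCA in 8 (12.3%), against 5.38%. The E-box CACGTG, the letters bound by the clock proteins CLOCK and BMAL1, was in 5 members (7.69%), against 8.09% of all promoters. None of these motifs holds another, and a core that reads on both strands at the same place was counted as a single promoter. The NRF1 core was found in Ndufa11, Ndufa6, Ndufa8, Sdhb, Uqcr11, Uqcrc1, Cox6a1, Atp5g2, Atp5k and Atp5l. A match is a string of letters and not a site shown to be bound. The promoters of Uqcr11 (chr10:80406772-80407071, minus strand), Cox6a1 (chr5:115348909-115349208, minus strand) and Sdhb (chr4:140961021-140961320, plus strand) are shown as members of 3 complexes that each hold an NRF1 and an ETS core, which are in capitals.
Uqcr11: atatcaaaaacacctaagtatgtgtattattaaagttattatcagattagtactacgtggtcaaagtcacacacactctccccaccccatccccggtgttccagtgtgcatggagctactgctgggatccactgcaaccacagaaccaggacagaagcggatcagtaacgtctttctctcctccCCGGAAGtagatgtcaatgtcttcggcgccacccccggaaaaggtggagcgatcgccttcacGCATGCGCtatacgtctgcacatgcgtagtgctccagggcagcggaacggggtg
Cox6a1: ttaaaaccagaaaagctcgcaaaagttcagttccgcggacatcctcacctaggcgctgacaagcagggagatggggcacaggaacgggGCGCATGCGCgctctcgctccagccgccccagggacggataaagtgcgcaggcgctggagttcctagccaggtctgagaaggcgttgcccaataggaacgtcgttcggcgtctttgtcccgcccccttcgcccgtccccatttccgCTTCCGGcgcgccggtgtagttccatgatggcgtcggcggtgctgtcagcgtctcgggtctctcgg
Sdhb: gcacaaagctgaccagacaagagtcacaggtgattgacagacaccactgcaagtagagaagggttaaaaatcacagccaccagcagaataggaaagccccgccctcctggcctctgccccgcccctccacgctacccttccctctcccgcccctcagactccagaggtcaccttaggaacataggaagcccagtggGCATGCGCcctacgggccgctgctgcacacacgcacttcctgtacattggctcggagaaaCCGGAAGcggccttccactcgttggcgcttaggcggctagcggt

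Summed over all members, subunit transcripts came to 81304 ± 67879 CPM in ZT12-EX, 66413 ± 14869 in ZT12-SED, 60261 ± 5203 in ZT0-EX and 76895 ± 25432 in ZT0-SED (SD, n = 6 each). The lowest and the highest sum both came from ZT12-EX, at 46053 CPM in ZT12-EX 6 and 219063 CPM in ZT12-EX 4. Without ZT12-EX 4 the ZT12-EX mean was 53752 ± 8129 CPM (SD, n = 5), the lowest of the 4 groups in place of the highest. In bulk heart RNA, fewer cardiomyocytes and less subunit RNA per cell cannot be told apart. Complex I summed to 23098 ± 21529 CPM in ZT12-EX, 18717 ± 4698 in ZT12-SED, 16377 ± 1824 in ZT0-EX and 21566 ± 7752 in ZT0-SED. Complex IV summed to 18501 ± 17938 CPM in ZT12-EX, 14392 ± 3840 in ZT12-SED, 13399 ± 1616 in ZT0-EX and 18489 ± 7635 in ZT0-SED. Without ZT12-EX 4 the ZT12-EX means were 14363 ± 2664 CPM in complex I and 11252 ± 2854 CPM in complex IV (n = 5). With all libraries, the group means of each complex differed by less than the SD of ZT12-EX. Complex II was the steadiest, with 2799 ± 603 CPM in ZT12-EX, 3018 ± 508 in ZT12-SED, 2951 ± 120 in ZT0-EX and 3248 ± 464 in ZT0-SED, and its highest library was 1.79 times its lowest. For complexes I, III, IV and V that ratio was 5.33, 4.81, 6.05 and 4.18.

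**Figure D1:**
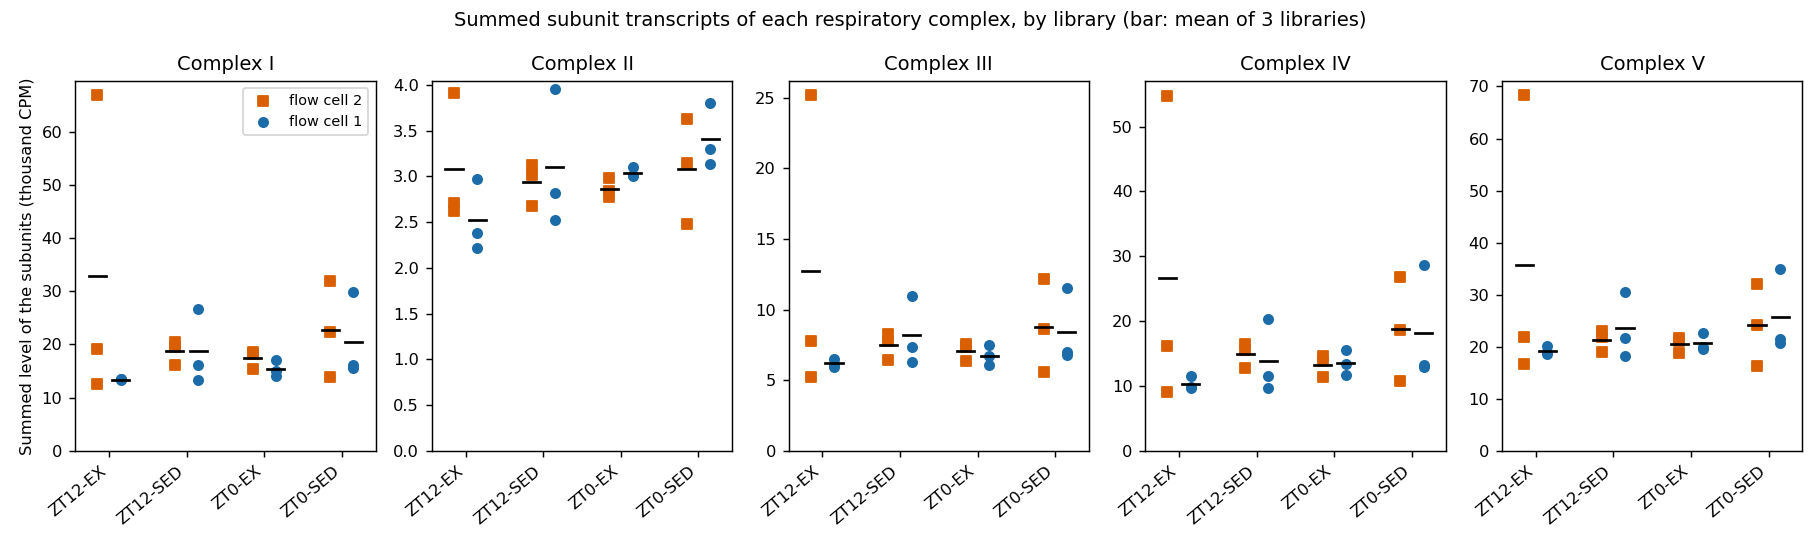
Summed CPM (TMM-scaled, linear axes from 0) of the subunits of each complex in each library, by group, with flow cell 2 and flow cell 1 as separate symbols and bars at the mean of 3 libraries. Library ZT12-EX 4 is the top point in complexes I, III, IV and V, at 66774, 25192, 54744 and 68447 CPM, while complex II spans 2214 to 3954 CPM.

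Behind these sums, single members ranged from nearly constant to widely scattered. Atp5a1 and Atp5b, the alpha and beta subunits of the catalytic head of ATP synthase, together with the complex I subunit Ndufa9, had the smallest spread of log2 CPM over the 24 libraries, with an SD of 0.19 for Atp5a1. Atp5b had a lowest, median and highest level of 3273, 3963 and 5501 CPM in ZT12-EX, 2855, 3879 and 4315 in ZT12-SED, 3915, 4315 and 5008 in ZT0-EX, and 3722, 4267 and 5060 in ZT0-SED. The 4 groups overlapped for this gene. Ndufb7 was the most variable, with an SD of 2.04, ahead of Uqcr11 and of Atp5d, the delta subunit of the central stalk. Its level was 25.9, 179 and 3971 CPM in ZT12-EX, 8.25, 214 and 514 in ZT12-SED, 180, 290 and 598 in ZT0-EX, and 116, 369 and 1114 in ZT0-SED (lowest, median and highest of 6). Within ZT12-SED, the 3 mice on flow cell 2 held 397 to 514 CPM and the 3 on flow cell 1 held 8.25, 18.1 and 31.6 CPM, among the lowest of all. The median member had an SD of 0.65, against 0.60 for the median gene.

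The first comparison, exercise at ZT0, gave a small downward shift spread over nearly all members and no single change that passed the test. Of 83 subunits, 0 had an adjusted p under 0.05 in ZT0-EX against ZT0-SED (quasi-likelihood F test of edgeR, Benjamini-Hochberg adjusted over all genes), where the same rule called 1.08% of all genes. At an unadjusted p under 0.05 it was 1 member (1.2%), against 10.4% of all genes, and DESeq2 and limma-voom also called 0. The median log2 fold change was -0.45 over the members and -0.01 over all genes. Negative values were given by 76 of 83 members, and 72 were negative in separate fits of both flow cells, at a median of -0.48 for flow cell 2 and -0.41 for flow cell 1. The separate fits gave the same sign, positive or negative, for 88% of members, against 71.1% of all genes. All 16 tested complex IV members were negative, with a median of -0.48, and medians were -0.44 in complex I, -0.23 in complex II, -0.39 in complex III and -0.45 in complex V. Among the sedentary mice the median member lay 0.84 and 0.90 log2 units above its mean over all libraries in ZT0-SED 3 and ZT0-SED 4. ZT0-SED 3 was on flow cell 1 and ZT0-SED 4 on flow cell 2, so each separate fit held 1 of them. In ZT0-SED 1, 2, 5 and 6 the median member stood at -0.10, -0.09, 0.35 and -0.29, and in the ZT0-EX libraries at -0.22 to 0.13. Without ZT0-SED 3 the median fold change was -0.18, with 59 of 83 negative. Without the 6 libraries that hold skeletal muscle transcripts, 3 of them the ZT0-EX libraries of flow cell 2, it was -0.22, with 62 of 83 negative.

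No member separated the ZT0 groups, since all 83 overlapped in CPM, whereas the groups were apart for 1.6% of all genes. The smallest p belonged to Atp5g3, one of the genes for the ring subunit c, with a log2 fold change of -0.55 ± 0.27 (SE, adjusted p = 0.479, edgeR). It had a lowest, median and highest level of 1036, 1176 and 1732 CPM in ZT0-EX and of 947, 1773 and 2612 CPM in ZT0-SED. Next came Sdhd, a membrane anchor of complex II, at -0.38 ± 0.19, with 366, 500 and 659 CPM in ZT0-EX and 374, 689 and 848 CPM in ZT0-SED. Ndufb3 of complex I stood at -0.48 ± 0.25. Members with a value near 0 included Atp5b at 0.01, the core protein Uqcrc1 at -0.02, Cyc1, the haem protein that hands electrons to cytochrome c, at -0.04, and Sdha, the succinate-oxidising flavoprotein, at 0.11.

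**Figure D2:**
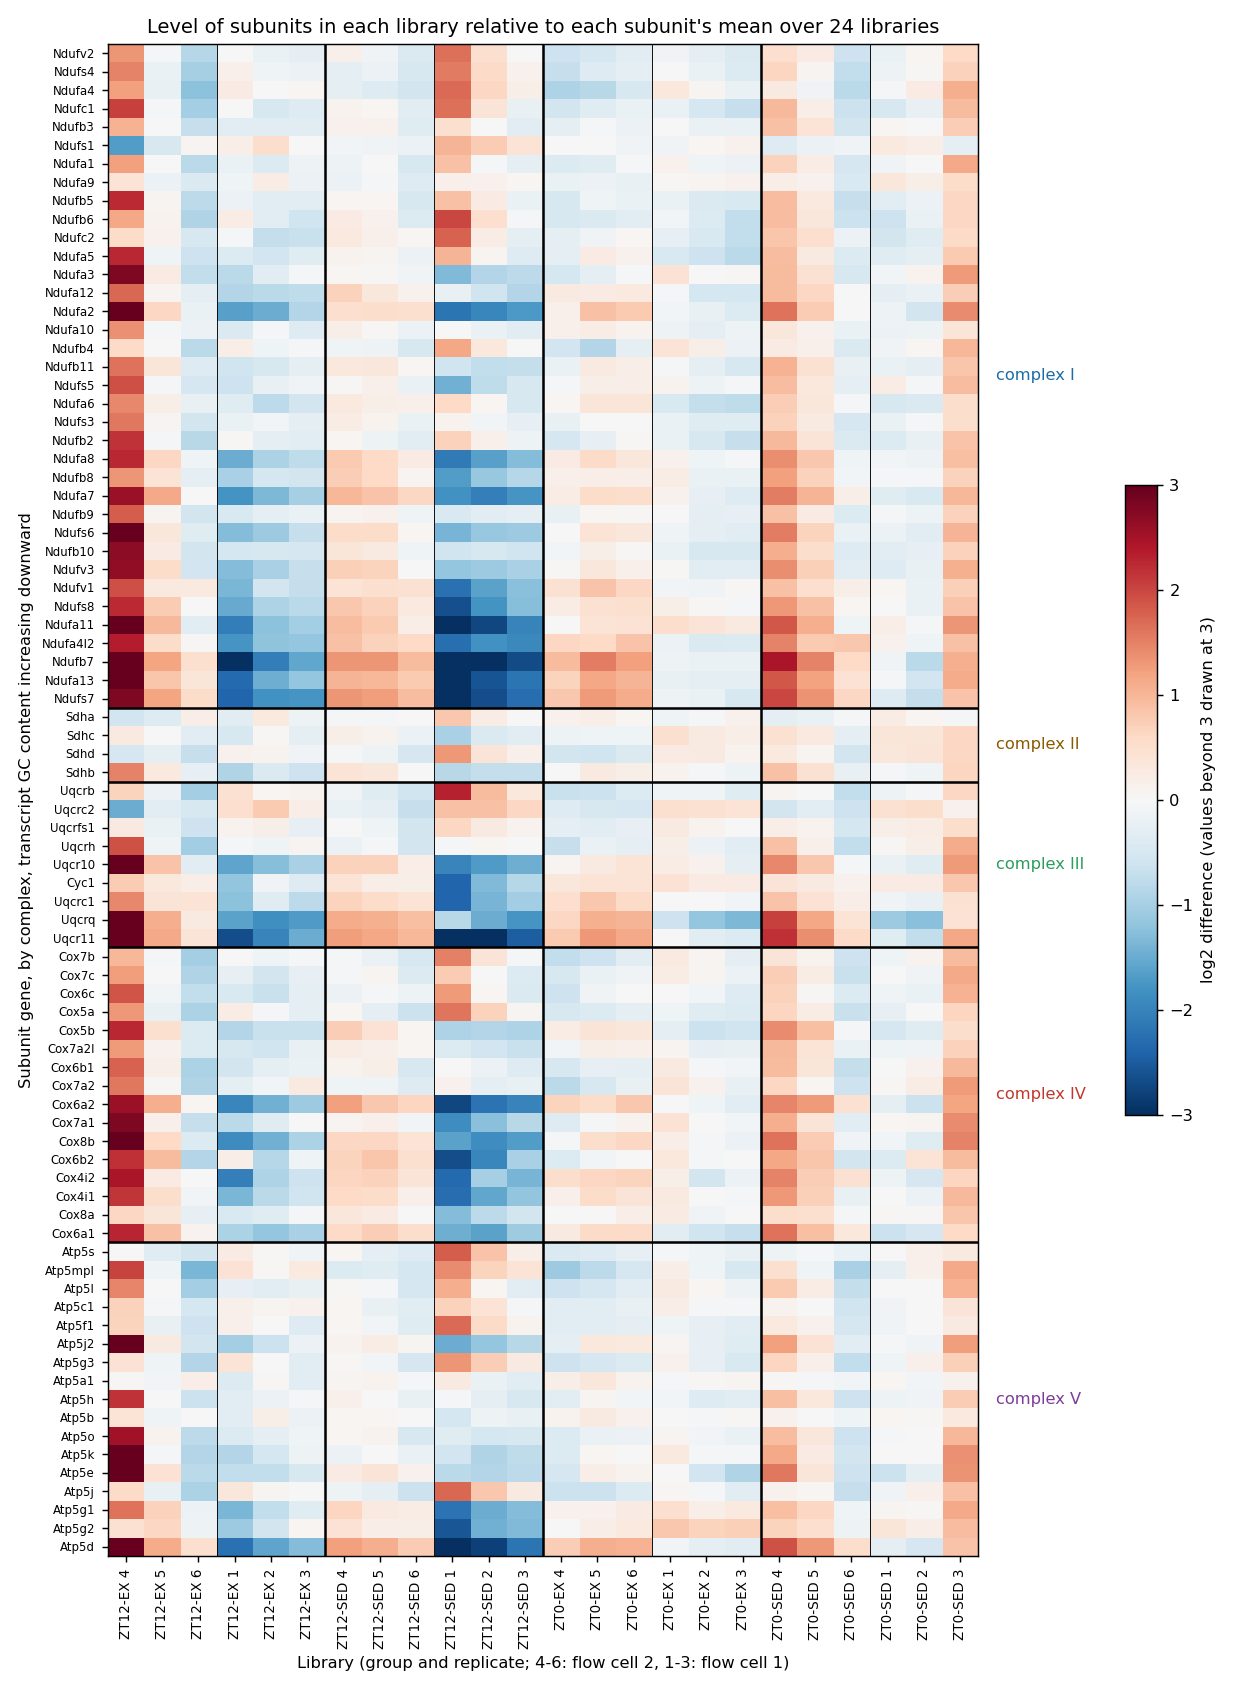
Level of tested subunits (rows, by complex and then by transcript GC content) in each of the 24 libraries (columns, ZT12 before ZT0, EX before SED and flow cell 2 before flow cell 1), as log2 CPM minus the subunit's mean over all libraries (colour scale). ZT12-EX 4 is high across most rows with a median of 1.72. On flow cell 1 the 28 GC-richest subunits are low in both ZT12-SED (-1.58) and ZT12-EX (-0.95). The 28 GC-poorest are high there in ZT12-SED (0.39) but not in ZT12-EX (-0.09).

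Exercise at ZT12 also changed no subunit by the test, and here the central value depended on a single mouse. Again 0 of 83 members passed, where 0.294% of all genes did, and DESeq2 and limma-voom called 0. An unadjusted p under 0.05 was reached by 16 members (19.3%; 13 with a higher and 3 with a lower value in ZT12-EX), against 16.4% of all genes. The median log2 fold change was 0.36 (61 of 83 positive), against 0.06 over all genes, with 0.30 in complex I, -0.08 in complex II, 0.47 in complex III, 0.51 in complex IV and 0.36 in complex V. Without ZT12-EX 4 the median was -0.11 and 56 of 83 were negative. Fitted alone, flow cell 2, which holds that library, gave 0.69, and flow cell 1 gave 0.13. The ranges of ZT12-EX and ZT12-SED overlapped for all 83 members, and were apart for 0.262% of all genes.

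The members with the smallest p at ZT12 show what carried these values. Cox7a1 held 8510 CPM in ZT12-EX 4, 1375 and 764 CPM in the other ZT12-EX libraries of flow cell 2 and 701, 948 and 1234 CPM in those of flow cell 1. In ZT12-SED it held 1297, 1374 and 1151 CPM on flow cell 2 and 336, 511 and 688 CPM on flow cell 1. Its log2 fold change was 1.28 ± 0.48 (SE, adjusted p = 0.245, edgeR), and 0.25 without ZT12-EX 4. Ndufa3, an accessory subunit of complex I, gave 1.22 ± 0.47 with that library and 0.16 without it. Atp5s had the smallest p, at -0.62 ± 0.22 (adjusted p = 0.227, edgeR), and stood at 0.02 once the fit carried an offset for transcript GC content and at -0.27 without ZT12-SED 1. Its level was 21.4, 29.9 and 37.6 CPM in ZT12-EX and 24, 34.1 and 112 CPM in ZT12-SED (lowest, median and highest of 6). All 3 genes had groups that overlapped.

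The exercise effect at ZT12 minus that at ZT0 was positive for 74 of 83 members, yet passed the test for none. The rule called 0 members and 0% of all genes, with 0 members also by DESeq2 and by limma-voom. At an unadjusted p under 0.05 there were 22 members (26.5%), all positive, against 8.02% of all genes. The median was 0.71 over the members and 0.01 over all genes. By complex it was 0.82 in complex I, 0.13 in complex II, 0.50 in complex III, 0.96 in complex IV and 0.56 in complex V. Without ZT12-EX 4 the median was 0.28, no member had an unadjusted p under 0.05, and 60 of 83 were positive. Flow cell 2 alone gave 1.21 and flow cell 1 alone 0.48.

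Among single members the difference was widest for Atp5e, the epsilon subunit of the central stalk of ATP synthase, at 2.39 ± 0.87 (SE, adjusted p = 0.571, edgeR). Its levels were 11778 CPM in ZT12-EX 4 and 429 to 1016 CPM in the other 5 ZT12-EX libraries, and 407 to 987 CPM in ZT12-SED. In ZT0-EX they were 402 to 869 CPM, and in ZT0-SED 481 to 2246 CPM, with ZT0-SED 4 and ZT0-SED 3 at 2246 and 1921 CPM. The high values thus came from 1 exercised mouse at ZT12 and from 2 sedentary mice at ZT0. The difference was 0.73 without ZT12-EX 4. Cox7a1 stood at 1.83 ± 0.68 and Atp5j2, a small membrane subunit of ATP synthase, at 1.79 ± 0.67, and without ZT12-EX 4 they stood at 0.80 and 0.70.

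**Figure D3:**
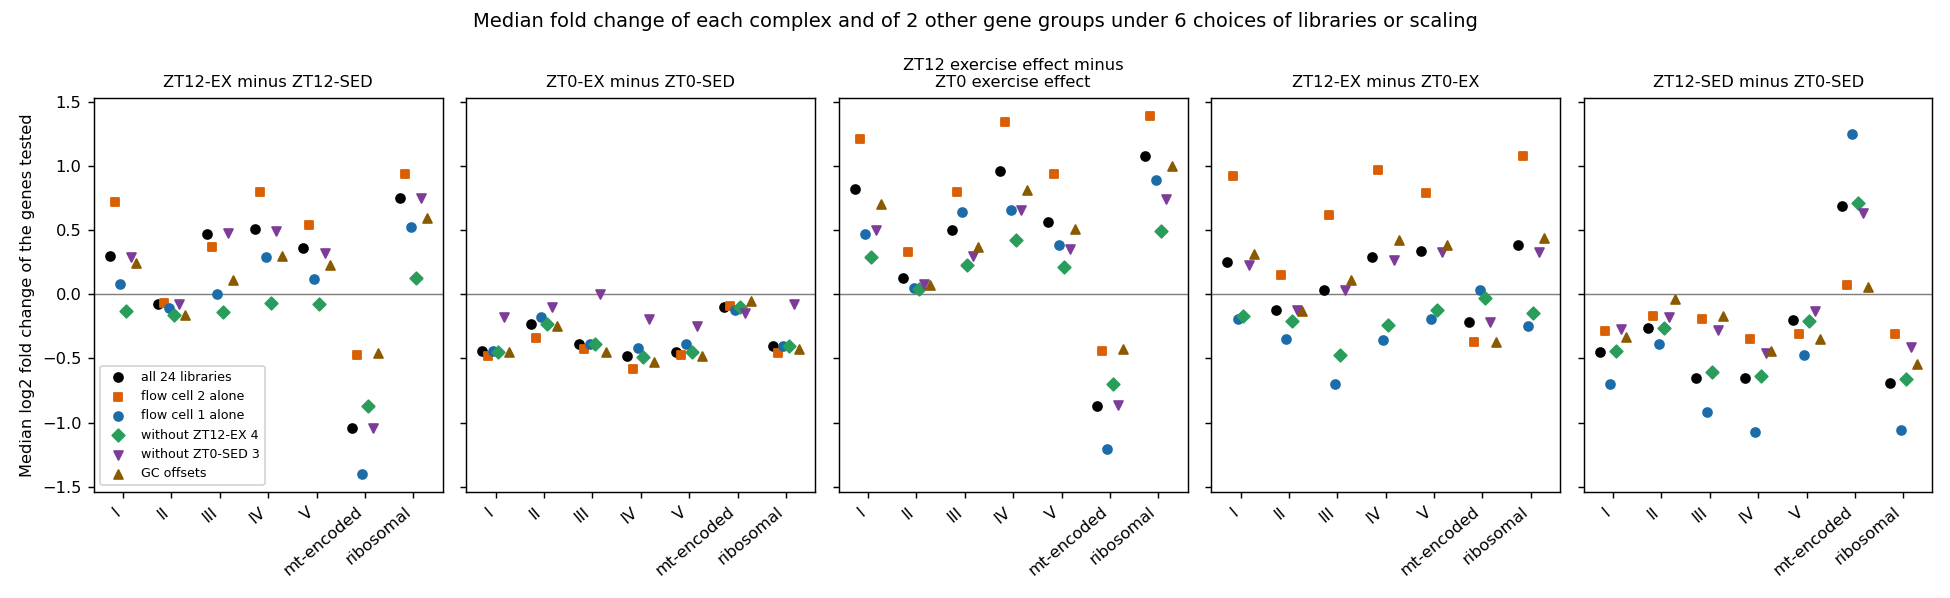
Median log2 fold change of each complex, of the mitochondrially encoded subunits and of the cytosolic ribosomal proteins in each comparison (y axis, log2), under 6 choices of libraries or scaling (symbols). The value over all libraries is 0.36 for members in ZT12-EX against ZT12-SED and -0.45 in ZT0-EX against ZT0-SED, and at ZT12 it is -0.11 when ZT12-EX 4 is left out.

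Time of day in sedentary mice gave the strongest downward values, and whether they passed depended on the libraries and tool. In ZT12-SED against ZT0-SED, 0 of 83 members passed with edgeR, where 5.2% of all genes did. At an unadjusted p under 0.05 there were 34 members (41%), 33 of them lower in ZT12-SED, against 33% of all genes in either direction. The median was -0.52, with 63 of 83 negative, and -0.28 without ZT0-SED 3. By complex it was -0.45 in complex I, -0.26 in complex II, -0.65 in complexes III and IV and -0.20 in complex V. The smallest adjusted p was 0.0568. DESeq2 called 25 members lower (30.1%), against 10.7% of all genes, and limma-voom called 3 (3.61%), against 2.42%.

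Leaving out certain libraries also brought members past the threshold, all of them lower in ZT12-SED. Without ZT12-EX 4, a library of neither group that enters the shared estimate of spread, 33 members (39.8%) were lower, against 11.5% of all genes. Without ZT0-SED 6 there were 26 (31.3%), against 10.5%. Without the 6 libraries that hold skeletal muscle transcripts there were 29 (34.9%), against 12.4%. Flow cell 1 alone called 42 lower (50.6%), against 24.8%, and 2 higher, whereas flow cell 2 alone called 0, with no member at an unadjusted p under 0.05. The 23 members called lower in each of 4 of these fits (DESeq2, without ZT12-EX 4, without the 6 libraries, flow cell 1 alone) were Ndufa2, Ndufa4l2, Ndufa7, Ndufa8, Ndufa11, Ndufa13, Ndufb7, Ndufb8, Ndufs7, Ndufs8 and Ndufv1 of complex I, Sdhc, Cyc1, Uqcr11, Cox4i1, Cox6a1, Cox6a2, Cox7a1, Cox8a, Cox8b, Atp5d, Atp5g1 and Atp5g2. Their transcripts held 48.7% to 61.1% GC. All 4 fits hold the ZT12-SED libraries of flow cell 1, so they are not independent of each other. The share of all genes called lower in all 4 was not computed. The ranges of ZT12-SED and ZT0-SED overlapped for all 83 members, and were apart for 1.7% of all genes.

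Ndufa13, an accessory subunit of complex I, shows how these values split by flow cell. On flow cell 2 it held 823, 810 and 702 CPM in ZT12-SED and 1473, 929 and 549 CPM in ZT0-SED. On flow cell 1 it held 40.1, 67.5 and 88 CPM in ZT12-SED and 388, 270 and 876 CPM in ZT0-SED. The groups overlapped on flow cell 2 and were apart on flow cell 1, and the log2 fold change over all libraries was -1.67 ± 0.54 (SE, adjusted p = 0.0623, edgeR). Ndufs7, a core subunit that carries the last iron-sulfur cluster before ubiquinone, gave -1.49 ± 0.49 (adjusted p = 0.0687), where flow cell 2 gave -0.27 and flow cell 1 gave -2.77. Ndufa4l2, a low-level relative of Ndufa4 that hypoxia induces, had the smallest p, at -1.28 ± 0.40 (adjusted p = 0.0568), where flow cell 2 gave -0.35 and flow cell 1 gave -2.41. With an offset for GC content Ndufa13 stood at -0.87, Ndufs7 at -0.68 and Ndufa4l2 at -0.63. The cardiomyocyte markers summed to 33270 to 41097 CPM in ZT12-SED and 50179 to 68871 CPM in ZT0-SED on flow cell 1. Other values were also apart between these 3 and 3 libraries. The 6 fibroblast markers summed to 2349 to 3590 CPM in ZT12-SED and 1348 to 1891 CPM in ZT0-SED, and the 7 tested white adipocyte markers to 4468 to 13788 CPM in ZT12-SED and 3235 to 4407 CPM in ZT0-SED. Lower in ZT12-SED were the 6 endothelial markers, at 349 to 612 CPM against 656 to 690 CPM in ZT0-SED. So were the brown adipocyte markers, of which only 1 was tested, at 5.37 to 7.96 CPM against 17 to 29.4 CPM. Transcripts of the mitochondrial genome took 40.7% to 55.1% of the counts in ZT12-SED and 25.5% to 34.2% in ZT0-SED. The part of any of these in the subunit values was not tested.

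In exercised mice the same time comparison had no common direction. In ZT12-EX against ZT0-EX, 0 of 83 members passed (1.65% of all genes), with 0 by DESeq2 and by limma-voom, and 4 (4.82%; 3 positive, 1 negative) had an unadjusted p under 0.05, against 14.3%. The median was 0.25 over all libraries, 0.84 for flow cell 2 alone and -0.26 for flow cell 1 alone, and 59 of 83 members had opposite signs between them. The sign was the same for 28.9% of members, against 50.9% of all genes. Without ZT12-EX 4 the median was -0.19. Atp5mpl, a small proteolipid of ATP synthase, had the smallest p at 1.09 ± 0.43 (SE, adjusted p = 0.234, edgeR), and stood at 0.26 without ZT12-EX 4. Its level was 259, 754 and 2727 CPM in ZT12-EX and 315, 478 and 766 CPM in ZT0-EX (lowest, median and highest of 6). Atp5e gave 1.46 ± 0.64, and -0.12 without ZT12-EX 4. All members overlapped between these groups, which were apart for 1.1% of all genes.

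The flow cell, a technical term that is balanced over the groups, was tested with 12 libraries on each side. Its median over the members was 0.43 on the log2 scale for flow cell 2 against flow cell 1, and 0.19 without ZT12-EX 4. Of 83 members, 48 (57.8%) differed between flow cell 2 and flow cell 1, against 68.1% of all genes. By direction, 39 (47%) were higher on flow cell 2, against 34.1% of all genes, and 9 (10.8%) were lower, against 34%. By complex, 20 were higher and 3 lower in complex I, 1 and 1 in complex II, 5 and 3 in complex III, 9 and 0 in complex IV, and 4 and 2 in complex V. The groups are the same on each flow cell, but mice and any handling differed too, and these cannot be told apart from sequencing. The cardiomyocyte markers summed to 49199 to 196292 CPM on flow cell 2 and 30362 to 68871 CPM on flow cell 1. The 6 fibroblast markers summed to 355 to 1367 CPM on flow cell 2, against 1348 to 3590 CPM on flow cell 1. Their part in the difference between flow cells was not tested.

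Members higher on flow cell 2 included subunits of every complex. Ndufs7 had the value 2.58 ± 0.37 (SE, adjusted p = 3.64e-06, edgeR), Uqcrq, a small subunit of complex III, 2.49 ± 0.36 (adjusted p = 3.27e-06), and Atp5d 2.47 ± 0.40 (adjusted p = 1.64e-05). Ndufa13 stood at 2.31 ± 0.40, Ndufa4l2 at 1.74 ± 0.28 and Cox6a1, the isoform of complex IV subunit 6a used outside muscle, at 1.62 ± 0.23. The largest value of all was that of Ndufb7, at 3.12 ± 0.56. Its 12 libraries of flow cell 2 held 288 to 3971 CPM and its 12 of flow cell 1 held 8.25 to 430 CPM, so the flow cells overlapped narrowly.

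The subunits lower on flow cell 2 were Uqcrc2, Sdhd, Uqcrb, Uqcrfs1, Ndufa4, Ndufb4, Ndufs1, Atp5j and Atp5s, of which Atp5s turned to 0.49 with GC offsets. Uqcrc2, a core protein of complex III, fell by 1.04 ± 0.13 on the log2 scale (SE, adjusted p = 5.66e-07, edgeR). It held 318 to 774 CPM in the libraries of flow cell 2 and 975 to 1656 CPM in those of flow cell 1, with no overlap in any group. Sdhd fell by 0.66 ± 0.13 (adjusted p = 0.000163), Ndufs1, the iron-sulfur protein at the NADH end of complex I, by 0.50 ± 0.16 (adjusted p = 0.00877), and Uqcrfs1, the Rieske protein, by 0.37 ± 0.13 (adjusted p = 0.0126). Uqcrc2 was thus lower and its partner core protein Uqcrc1 higher, at 1.19, on the same flow cell. Their transcripts held 44.4% and 57.5% GC.

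The values of the members varied with transcript GC content in most comparisons. Across the 83 members, Spearman's correlation of the log2 fold change with GC content was 0.80 for flow cell 2 against flow cell 1, 0.70 for ZT12-EX against ZT12-SED, 0.59 for the difference of the exercise effects, -0.78 for ZT12-SED against ZT0-SED and -0.36 for ZT12-EX against ZT0-EX. For ZT0-EX against ZT0-SED it was 0.06. Over all genes it was 0.82, 0.60, 0.46, -0.71, -0.38 and 0.03 in the same order, so the correlations over the members were close to those over genes in general. Some of them differed by flow cell. For ZT12-SED against ZT0-SED flow cell 2 alone gave -0.08 and flow cell 1 alone -0.80, and for ZT12-EX against ZT12-SED they gave 0.32 and 0.77. For ZT12-EX against ZT0-EX flow cell 2 alone gave 0.25 and flow cell 1 alone -0.72, and the value over all libraries was -0.69 without ZT12-EX 4. These are correlations across genes, which share libraries and are not independent. In single libraries the correlation of GC content with the level of members relative to their mean was 0.56 to 0.80 in all 12 libraries of flow cell 2. On flow cell 1 it was -0.83 to -0.58 in the 6 ZT12 libraries and -0.47 to 0.27 in the 6 ZT0 libraries.

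Split by GC content alone, the 28 GC-poorest members (39% to 49.9% GC) had a median of -0.20 for flow cell 2 against flow cell 1, with 2 called higher and 7 lower. The 27 in the middle had 0.52, with 12 higher and 1 lower, and the 28 GC-richest (55.3% to 61.1%) had 1.38, with 25 higher and 1 lower. The shares of all genes called within these GC ranges were not computed. Over all genes 34.1% were higher and 34% lower, and the fold change had a correlation of 0.82 with GC content. For ZT12-SED against ZT0-SED the medians were 0.12, -0.51 and -1.02 from the poorest to the richest, and for ZT12-EX against ZT12-SED they were -0.09, 0.39 and 0.68. For ZT0-EX against ZT0-SED they were -0.46, -0.46 and -0.41, nearly the same whatever the GC content. They varied with transcript length: Spearman's correlation of that fold change with length was 0.53 across the members, 0.53 on flow cell 2 alone, 0.49 on flow cell 1 alone and 0.49 with GC offsets. The shorter transcripts thus had the more negative values. A correlation with length over all genes was not computed. In single libraries the correlation of length with the level of members relative to their mean was -0.65 in ZT0-SED 3 (flow cell 1) and -0.46 in ZT0-SED 4 (flow cell 2). It was -0.33 to 0.27 in ZT0-SED 1, 2, 5 and 6, and -0.19 to 0.23 in ZT0-EX. For the difference of the exercise effects the correlation with length was -0.55, and -0.45 without ZT12-EX 4. Offsets fitted per library to GC content over all genes are built to remove such trends, so lower correlations follow from the fitting. Over members the correlations became 0.11 for flow cell, -0.26 for ZT12-SED against ZT0-SED and 0.13 for ZT12-EX against ZT12-SED. Over all genes they became 0.05, -0.04 and 0.02. With these offsets, 22 members (26.5%) differed between flow cells, against 34.2% of all genes, and the median of ZT0-EX against ZT0-SED stayed at -0.45.

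**Figure D4:**
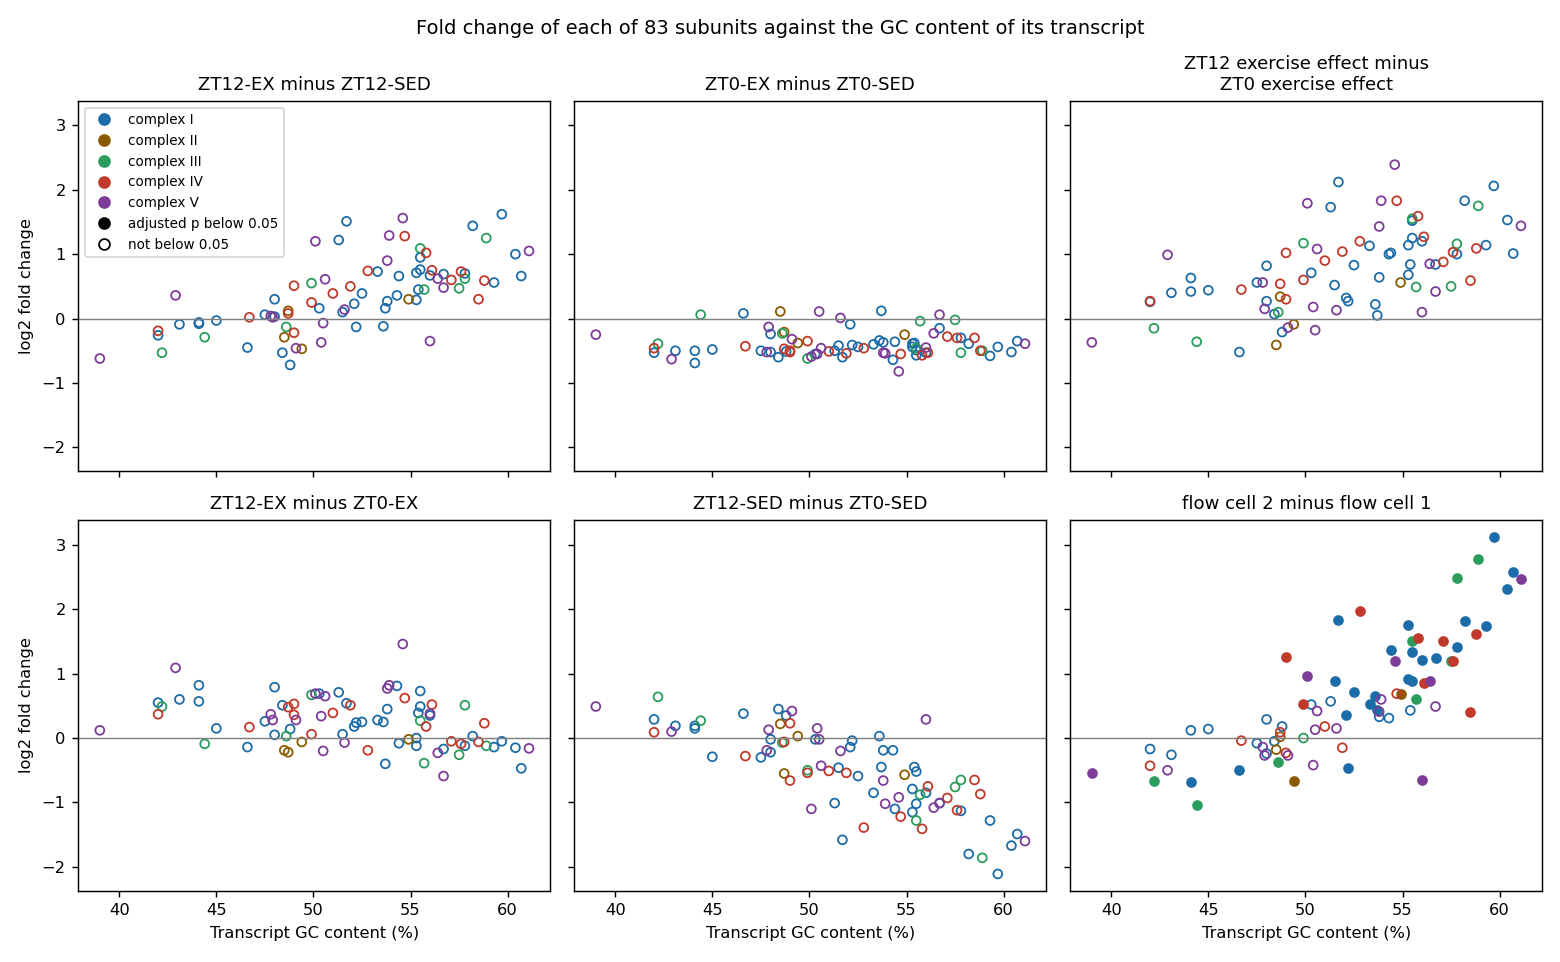
Log2 fold change of each of the 83 subunits (y axis) against the GC content of its transcript in percent (x axis), coloured by complex, with a panel per comparison. Points slope upward for flow cell 2 against flow cell 1 (Spearman 0.80) and downward for ZT12-SED against ZT0-SED (-0.78), and lie flat below 0 for ZT0-EX against ZT0-SED (0.06).

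Isoform pairs were compared per kilobase of transcript within each library. The striated muscle isoform Cox6a2 exceeded Cox6a1 in every library, with a median ratio of 12.3 and a range of 4.69 in ZT12-SED 1 to 17.7 in ZT12-SED 4. Cox8b exceeded Cox8a with a median of 11, a lowest ratio of 4.17 in ZT12-EX 1 and a highest of 64.3 in ZT12-EX 4. Cox7a1 exceeded Cox7a2 with a median of 2.68, but the ratio was 0.606 in ZT12-SED 1. The muscle isoforms therefore dominated in heart apart from Cox7a in that library. Group medians of Cox7a1 over Cox7a2 were 2.37 in ZT12-EX, 2.2 in ZT12-SED, 2.88 in ZT0-EX and 2.82 in ZT0-SED, and the ranges of the 4 groups overlapped. By flow cell this ratio was 2.68 to 5.65 on flow cell 2 and 0.606 to 2.68 on flow cell 1. Cox4i1, the common isoform of the regulatory subunit 4, exceeded Cox4i2 with a median of 264 (164 to 446).

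The 3 genes Atp5g1, Atp5g2 and Atp5g3 encode the same mature ring subunit behind different import sequences. Atp5g3 and Atp5g1 were nearly level, with a median ratio per length of 1.08, while Atp5g3 exceeded Atp5g2 with a median of 6.22. In ZT12-SED the ratio of Atp5g3 to Atp5g1 ran from 0.877 to 16.8, and in ZT0-SED from 0.951 to 1.59. The top value was that of ZT12-SED 1. Atp5g1 held 56.4% GC and Atp5g3 50.4%. Ndufa4 exceeded Ndufa4l2 by a median of 335, from 151 in ZT0-SED 6 to 7597 in ZT12-SED 1. This ratio was 151 to 267 on flow cell 2 and 404 to 7597 on flow cell 1, so for this pair the flow cells did not overlap.

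**Figure D5:**
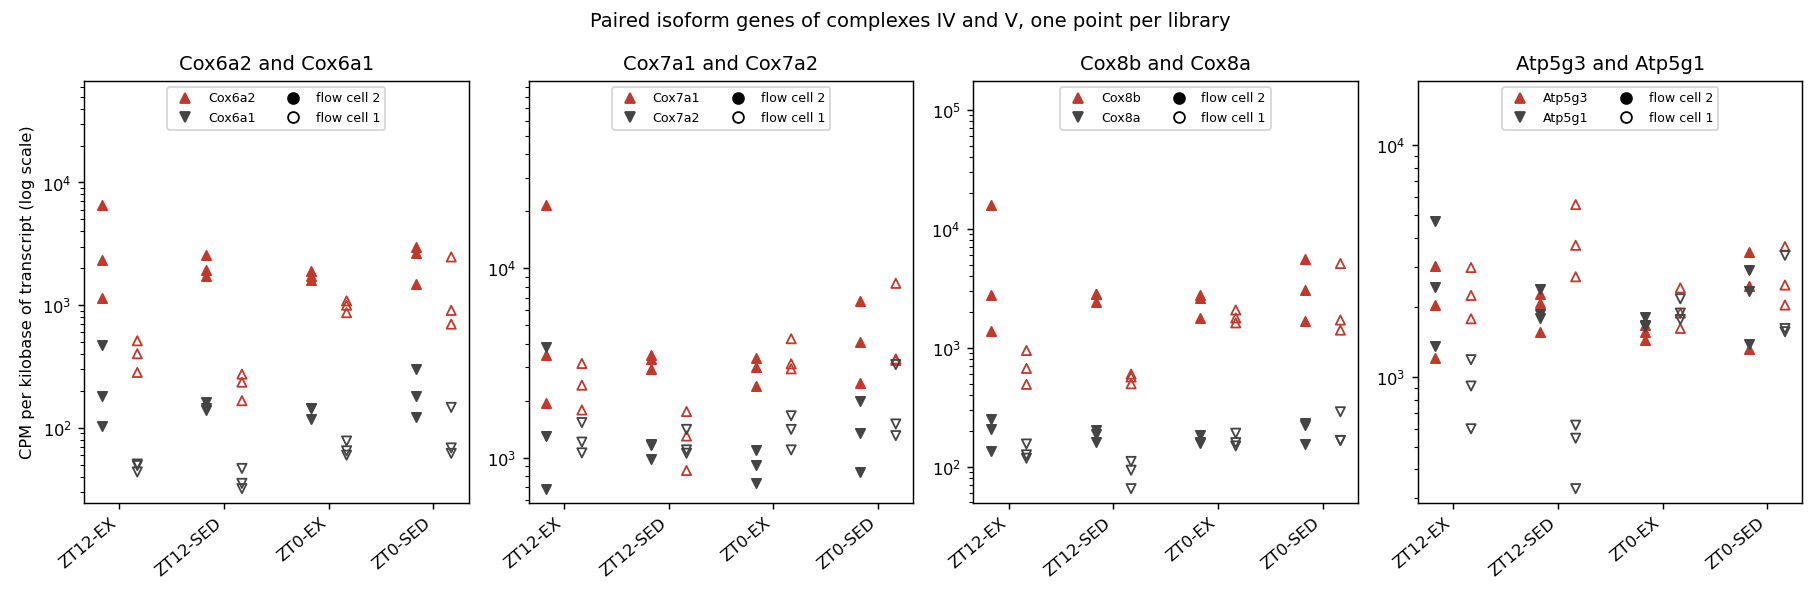
Levels of isoform genes in CPM per kilobase of transcript (y axis, log scale) in each library, by group, with the first gene of each pair in red, the second in grey, filled symbols for flow cell 2 and open symbols for flow cell 1. Cox6a2 and Cox8b lie above Cox6a1 and Cox8a in every library, Cox7a1 lies below Cox7a2 in ZT12-SED 1, and Atp5g3 is 16.8 times Atp5g1 in ZT12-SED 1.

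The 13 subunits encoded by the mitochondrial genome did not share the values of their nuclear partners. Their median log2 fold change was -1.04 in ZT12-EX against ZT12-SED, -0.10 in ZT0-EX against ZT0-SED, -0.87 for the difference of these effects, and 0.69 in ZT12-SED against ZT0-SED, against 0.36, -0.45, 0.71 and -0.52 over the nuclear members. A single gene of the 13 passed: mt-Co3, a core subunit of complex IV, fell by 1.62 ± 0.34 in ZT12-EX against ZT12-SED (SE, adjusted p = 0.0321, edgeR) and rose by 1.37 ± 0.33 in ZT12-SED against ZT0-SED (adjusted p = 0.0197). Of all genes, 0.294% and 5.2% passed in these 2 comparisons. These comparisons share the ZT12-SED libraries, and with GC offsets none of the 13 passed in either, with medians of -0.46 and 0.06. On flow cell 2 all 13 were lower than on flow cell 1, with a median of -1.57, and 8 were with GC offsets, with a median of -0.61. The test called 34% of all genes lower on flow cell 2, and 34.2% in either direction with GC offsets. Poly-A selection was used for these libraries, and its part in the mitochondrial values was not tested.

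The cytosolic ribosomal proteins, another family of short and abundant transcripts, were closer to the subunits. Of their 77 tested genes none passed in the 5 comparisons of groups, and their medians were 0.75 in ZT12-EX against ZT12-SED, -0.40 in ZT0-EX against ZT0-SED, 1.08 for the difference and -0.69 in ZT12-SED against ZT0-SED. Without ZT12-EX 4 the median at ZT12 was 0.13. In that fit 35 of the 77 passed the test as lower in ZT12-SED than in ZT0-SED, against 11.5% of all genes. Across the 24 libraries, the median deviation of the subunits and that of the ribosomal proteins had Pearson's r of 0.965 and Spearman's rho of 0.919, and 0.936 and 0.908 without ZT12-EX 4. Within flow cell 2 the values were 0.984 and 0.76 (n = 12), and within flow cell 1 they were 0.921 and 0.867 (n = 12). Both families share the libraries and their scaling. ZT12-EX 4 stood at 1.72 for the subunits and 2.02 for the ribosomal proteins, and ZT0-SED 3 at 0.84 and 0.99. The libraries that were high in subunits were thus also high in ribosomal protein transcripts.

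Other genes of the pathway gave few calls. None of 45 tested assembly factors, 13 citric acid cycle enzymes, 15 regulators and 18 electron carriers and partners passed in the 5 comparisons of groups. Between flow cells 14 assembly factors were higher and 12 lower, against 3 and 4 of the citric acid cycle enzymes, 6 and 8 of the regulators and 10 and 5 of the carriers, where 34.1% of all genes were higher and 34% lower. In ZT12-SED against ZT0-SED, Coq8a, a kinase-like protein of ubiquinone synthesis, stood at -0.84 (adjusted p = 0.0521, edgeR) and Esrra, the ERR receptor that drives respiratory genes, at -1.02 (adjusted p = 0.0623). On flow cell 2 Esrra was higher by 2.37 ± 0.24 on the log2 scale (SE, adjusted p = 3.93e-08) and Ppard, another nuclear receptor of oxidative genes, by 1.95 ± 0.24 (adjusted p = 4.76e-07).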

How the data were processed

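Poly-A RNA of 24 hearts was sequenced from TruSeq libraries, per the labels' protocols. The authors deposited whole-number read counts per Ensembl gene, not normalized. Per the submitters' processing notes, Trimmomatic 0.39, HISAT2 2.2.1 and featureCounts 2.0.1 were used with GRCm39; their settings (annotation release, strand, reads shared by similar genes) are not given in the sources, so members with near-identical copies are uncertain. Symbols, biotypes, lengths and GC content came from GENCODE M21 (GRCm38), matched by identifier; 257 identifiers had no symbol and held 0.00128% of counts.

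Genes were kept by filterByExpr (15294) and scaled by TMM. Robust quasi-likelihood models of edgeR 4.0.16 (R 4.3.3) were fitted to all 24 libraries with group and flow cell as terms (19 residual degrees of freedom). Adjusted p-values are Benjamini-Hochberg over all genes, with a threshold of 0.05. The SE is the absolute log2 fold change over the root of F. DESeq2 1.42.0, limma-voom (limma 3.58.1), other scalings and filters, GC offsets (lowess span 0.3), each flow cell alone, sets of libraries left out and a block for replicate number were alternatives. Levels per library are TMM-scaled CPM; deviations use log2 CPM with prior count 2. Count floors cover counting error only. The labels name each library a biological replicate. No pair of libraries in a group looked like a repeated deposit (lowest chi-square per degree of freedom 13.3 over 60 pairs).

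The members and gene lists were chosen with earlier results of these data known. Named were the 2 most abundant members of each complex, in each comparison the members with the smallest p, a preset list of subunits and isoforms, and the members under the filter. Ndufb7, Uqcr11, Uqcrc1, Ndufa9, Cox6b2, the 23 members shared by several fits and members given as near 0 were chosen after their values were seen. The fits were tested on simulated data. For 1 member, single values are not reported here.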

Additional observations from a re-analysis of the deposited data

Results flagged for a closer look

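Within groups of 6, a library whose distance from its nearest neighbour, as a share of the group's range, was above Dixon's critical value was found in 39 of 196 groups of values examined (named members and sums, each in 4 groups). For normally distributed values, chance alone marks about 1 in 20 groups. The values here were CPM on a linear scale from libraries of both flow cells, so their chance rate is not known. Members of a library are also not independent of each other. All 39 were high values.

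ZT12-EX 4 accounted for 30, with a gap of 0.674 to 0.948 of the range. It held summed levels of 219063 CPM over all members, 66774 in complex I, 25192 in complex III, 54744 in complex IV and 68447 in complex V. In complex I it held 3376 CPM of Ndufa13, 2759 of Ndufa3, 40 of Ndufa4l2, 524 of Ndufb3, 1566 of Ndufs4, 1263 of Ndufs7, 1856 of Ndufv1 and 2531 of Ndufv2. Complexes II and III added 2290 CPM of Sdhb, 6201 of Uqcrh and 5484 of Uqcrq. Complex IV added 7506 CPM of Cox4i1, 35.1 of Cox4i2, 272 of Cox6a1, 4489 of Cox6a2, 8649 of Cox6c, 8510 of Cox7a1, 2528 of Cox7a2, 721 of Cox7a2l, 4710 of Cox7b and 5752 of Cox8b. Complex V added 2462 CPM of Atp5d, 11778 of Atp5e, 9351 of Atp5j2 and 2727 of Atp5mpl.

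ZT12-SED 1 accounted for 8, with a gap of 0.653 to 0.815 of the range, and these transcripts held 42% to 49.4% GC. It held 5610 CPM of Cox6c, 6721 of Cox7b, 7613 of Ndufa4, 1661 of Ndufs4, 3175 of Ndufv2, 1939 of Sdha, 1357 of Sdhd and 5855 of Uqcrb. These CPM depend on the scaling, since a low TMM factor raises every gene of a library relative to its total. The factor was 0.538 in ZT12-SED 1, against 0.635 to 1.21 in the rest of its group. In ZT12-EX 4 it was 0.728, against 0.972 to 1.19 in the rest of its group. ZT0-SED 3 held 799 CPM of Cyc1, against 589 in the next library.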

How the results depend on the processing

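The number of members past the threshold was 0 under all 16 other settings and all 24 fits without a single library for ZT0-EX against ZT0-SED and ZT12-EX against ZT12-SED, and under all settings run for the difference of these effects. For ZT12-SED against ZT0-SED, 0 became 25 with DESeq2, 3 with limma-voom, 44 on flow cell 1 alone and 29 without the 6 libraries with skeletal muscle transcripts, and leaving out single libraries gave 0 to 33 (33 without ZT12-EX 4, 26 without ZT0-SED 6, 2 without ZT0-SED 5). For ZT12-EX against ZT0-EX flow cell 1 alone gave 2. For flow cell 2 against flow cell 1, 48 became 22 with GC offsets, and leaving out single libraries gave 44 to 53. The cause was not tested. The difference of Atp5s between flow cells turned sign with GC offsets, at 0.49. Of 1005 values of single members under other settings, over 27 results, 923 kept their direction and their side of the threshold.

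Correlations of the deviations of same-numbered replicates ran from -0.445 to 0.781 over 36 pairs of libraries. They were positive for all 6 numbers between ZT12-EX and ZT12-SED (0.0564 to 0.484) but not over 0.1 for every number in any pair of groups, so the numbers were not taken to pair mice; with the replicate block, alone or with GC offsets, 0 members were called in each of the 5 comparisons of groups. Leaving out ZT12-EX 4 turned the median of the members at ZT12 to -0.11 and of ZT12-EX against ZT0-EX to -0.19. Each group has 3 mice on a flow cell. A count of 3 was worth 0.575 CPM in the shallowest library, ZT12-SED 1; among members with counts, Cox6b2 and Cox7b2 reached values this low.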
